A study of Homo sapiens with 44 samples.

Results

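A set of 10 genes that make, break down or regulate the polyamines putrescine, spermidine and spermine was followed in castration-resistant VCaP tumors after 4 weeks of antiandrogen treatment. The genes were chosen by name for their roles: ODC1, AMD1, SRM and SMS for synthesis, SAT1, SMOX and PAOX for turnover, and AZIN1, OAZ1 and OAZ2 for control of ODC1. They are 10 of the 23368 gene symbols in the deposited table, and all 10 passed the filter on low counts that left 13520 genes for testing. Across the drug-treated tumors the clearest pattern was a lower ODC1 level together with a higher SAT1 level, and SRM was lower under ARN-509 (under both drugs once a trend with GC content and transcript length was taken out).

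Polyamines are small, positively charged amines that bind nucleic acids and are needed for growth. ODC1, ornithine decarboxylase, makes putrescine from ornithine, and AMD1, S-adenosylmethionine decarboxylase, makes the aminopropyl donor that SRM and SMS add to form spermidine and then spermine. SAT1 acetylates spermidine and spermine for export or for oxidation by PAOX, and SMOX oxidises spermine directly. The antizymes OAZ1 and OAZ2 bind the ODC1 protein and send it to the proteasome, and AZIN1, an inactive relative of ODC1, binds antizymes in its place. The prostate is known for secreting large amounts of polyamines, and ODC1 is known as an androgen-responsive gene in prostate cells.

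VCaP is an established cell line from a human prostate cancer with a fusion of TMPRSS2 to ERG. Its xenografts were used at passage 61 and grown in athymic nude mice (Foxn1nu), which lack mature T cells and keep other host cells. All mice were castrated once tumors had formed, and treatment began after serum PSA had returned to where it stood before castration, so every arm, vehicle included, came from castrated hosts. Enzalutamide (20 mg/kg/day, 13 tumors used of 14) or ARN-509 (apalutamide, 20 mg/kg/day, 15 tumors) was given by daily gavage for 4 weeks, and the controls received vehicle (15 tumors). Both drugs are antagonists of the androgen receptor. All tumors derive from this 1 line, so p-values speak of the spread between its tumors, and the labels name no separate batches.

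The values are raw counts per gene as the authors deposited them, with 4.72 to 16.9 M counts per enzalutamide library (M, mega; median 8.62), 3.38 to 30.1 M per ARN-509 library (median 7.49) and 4.19 to 25.8 M per vehicle library (median 5.71). Enzalutamide replicate 4, with 80142 counts, was left out. Levels are in CPM, a gene's counts per M counts of the TMM-scaled library. Log2 fold changes are from edgeR's quasi-likelihood test, and p-values are adjusted by Benjamini-Hochberg over all 13520 genes with a threshold of 0.05. The drug labels were checked with 4 genes. STEAP4, an androgen-induced metalloreductase, fell by 4.23 on the log2 scale under enzalutamide (adjusted p = 3.04e-09) and fell by 3.74 under ARN-509 (adjusted p = 4.36e-09). In the same order, TRPM8 differed by -2.54 and -2.03 (adjusted p = 1.12e-08 and 1.50e-07). FKBP5 differed by -0.44 and -0.59 (adjusted p = 0.00574 and 5.00e-05). KLK3 did not pass under enzalutamide (-0.17, adjusted p = 0.697) and passed under ARN-509 (-0.61, adjusted p = 0.0243). The 9 prostate tumor markers summed to 13883 to 19579 CPM with enzalutamide, 13196 to 19346 CPM with ARN-509 and 8624 to 17575 CPM with vehicle. Of markers of other cell types, 1 of 5 fibroblast, 0 of 4 endothelial, 1 of 5 leukocyte and 0 of 4 erythrocyte genes passed the filter. Their summed levels stayed at or under 17.2, 6.43, 10.7 and 2.03 CPM. Host cells in these tumors are of mouse and the counts are of human genes, so these levels cannot measure how many host cells were present. The endothelial sum was lower with the drugs (0.202 to 2.52 CPM with enzalutamide, 0.210 to 1.58 CPM with ARN-509 and 1.33 to 6.43 CPM with vehicle). This was mainly VWF, at a median of 0.354 CPM with enzalutamide, 0.185 with ARN-509 and 3.15 with vehicle. PECAM1 had medians of 0.486, 0.612 and 0.969 CPM in the same order, and CDH5 and KDR a median of 0 in all 3 arms. The part of the endothelial sum in the results was not tested. Vehicle replicates 8 and 10 stood apart from their arm with a Pearson r of 0.890 and 0.917 to its other libraries, across genes averaging at least 50 CPM, against at least 0.956 for every other library. Calls against vehicle are therefore also given without both, from a fit added after the data were seen.

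ODC1 and SAT1 moved in opposite directions under both drugs. ODC1 was found at 145 CPM in the lowest enzalutamide tumor, at a median of 214 and at 254 in the highest. In ARN-509 tumors its lowest, median and highest levels were 139, 186 and 260 CPM, and in vehicle tumors they were 147, 264 and 539 CPM. All 13 enzalutamide and all 15 ARN-509 tumors lay below the vehicle median, and the ranges overlapped because the lower vehicle tumors lay among the drug-treated ones. The mean was 202 ± 32.1 CPM with enzalutamide (SD, n = 13), 188 ± 31.8 CPM with ARN-509 (n = 15) and 280 ± 107 CPM with vehicle (n = 15). ODC1 fell by 0.47 ± 0.13 on the log2 scale (SE) under enzalutamide (adjusted p = 0.0144) and by 0.57 ± 0.13 under ARN-509 (adjusted p = 0.000759), which are 0.723 and 0.673 of the vehicle level. Because whole tumors were sequenced, fewer cells of a type and less RNA per cell cannot be told apart in this or any later result.

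Vehicle replicate 8 held the highest ODC1 level (539 CPM) and vehicle replicate 10 the lowest of its arm (147 CPM). Without both, ODC1 differed by -0.42 under enzalutamide (adjusted p = 0.00959) and by -0.52 under ARN-509 (adjusted p = 0.000346). The spread of ODC1 was narrower with the drugs, with a coefficient of variation of 15.9% with enzalutamide, 16.9% with ARN-509 and 38.2% with vehicle, a difference that was not tested.

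SAT1, which starts polyamine turnover, ran from 81.6 CPM in the lowest enzalutamide tumor over a median of 96.8 to 132 in the highest. ARN-509 tumors ran from 85.9 over 109 to 157 CPM, and vehicle tumors from 58.7 over 79.9 to 153 CPM. Every drug-treated tumor lay above the vehicle median, and a single vehicle tumor, replicate 12 at 153 CPM, exceeded the other vehicle tumors (at most 102 CPM). SAT1 rose by 0.46 ± 0.10 on the log2 scale under ARN-509 (adjusted p = 0.000382; 1.38-fold). Under enzalutamide it rose by 0.31 ± 0.10 (adjusted p = 0.0382; 1.24-fold), a call lost in 13 of the 43 fits that each leave out 1 library (adjusted p from 0.0510 to 0.0828). These libraries were enzalutamide 5, 7, 9, 12 and 14 and vehicle 2, 3, 5, 6, 7, 9, 13 and 15. Without vehicle 8 and 10, SAT1 differed by 0.33 under enzalutamide (adjusted p = 0.0257) and by 0.49 under ARN-509 (adjusted p = 0.000267). The ratio of ODC1 to SAT1 counts within a tumor, which needs no scaling between libraries, was 1.21 to 2.78 with enzalutamide (median 2.04), 1.08 to 2.56 with ARN-509 (median 1.61) and 1.73 to 5.87 with vehicle (median 3.24). All 13 enzalutamide and all 15 ARN-509 tumors had a ratio below the vehicle median. That count was nearly fixed by the positions of both genes against their vehicle medians, so it is not separate support.

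**Figure D1:**
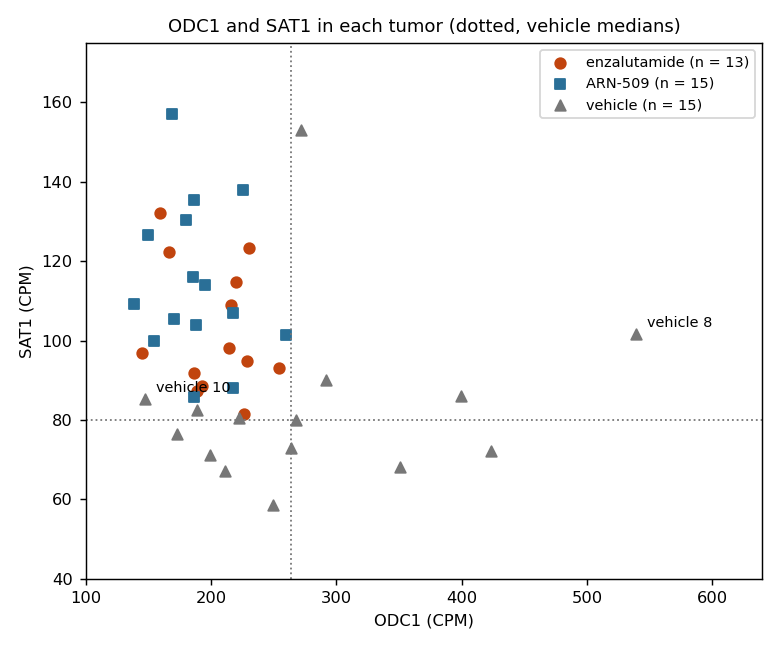
Levels of SAT1 (y axis, CPM) against ODC1 (x axis, CPM) in each of the 43 tumors, with enzalutamide as circles, ARN-509 as squares, vehicle as triangles and dotted lines at the vehicle medians. The drug-treated tumors all sit in the upper left region, below 264 CPM of ODC1 and above 79.9 CPM of SAT1, while vehicle tumors spread to 539 CPM of ODC1.

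The calls among the 10 genes were then read beside those over all tested genes. Under enzalutamide, 2 of the 10 passed the test against 10.8% of all genes: SAT1 rose (5.1% of all genes rose) and ODC1 fell (5.67% fell). Under ARN-509, 5 of the 10 passed against 30.8% of all genes: SAT1 and AMD1 rose (14.7% of all genes rose) and ODC1, SRM and OAZ1 fell (16.1% fell). The median log2 fold change of the 10 was -0.04 with enzalutamide, against 0.00 for all genes, and -0.18 with ARN-509, likewise against 0.00. No test of the 10 genes as a group was made.

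**Figure D2:**
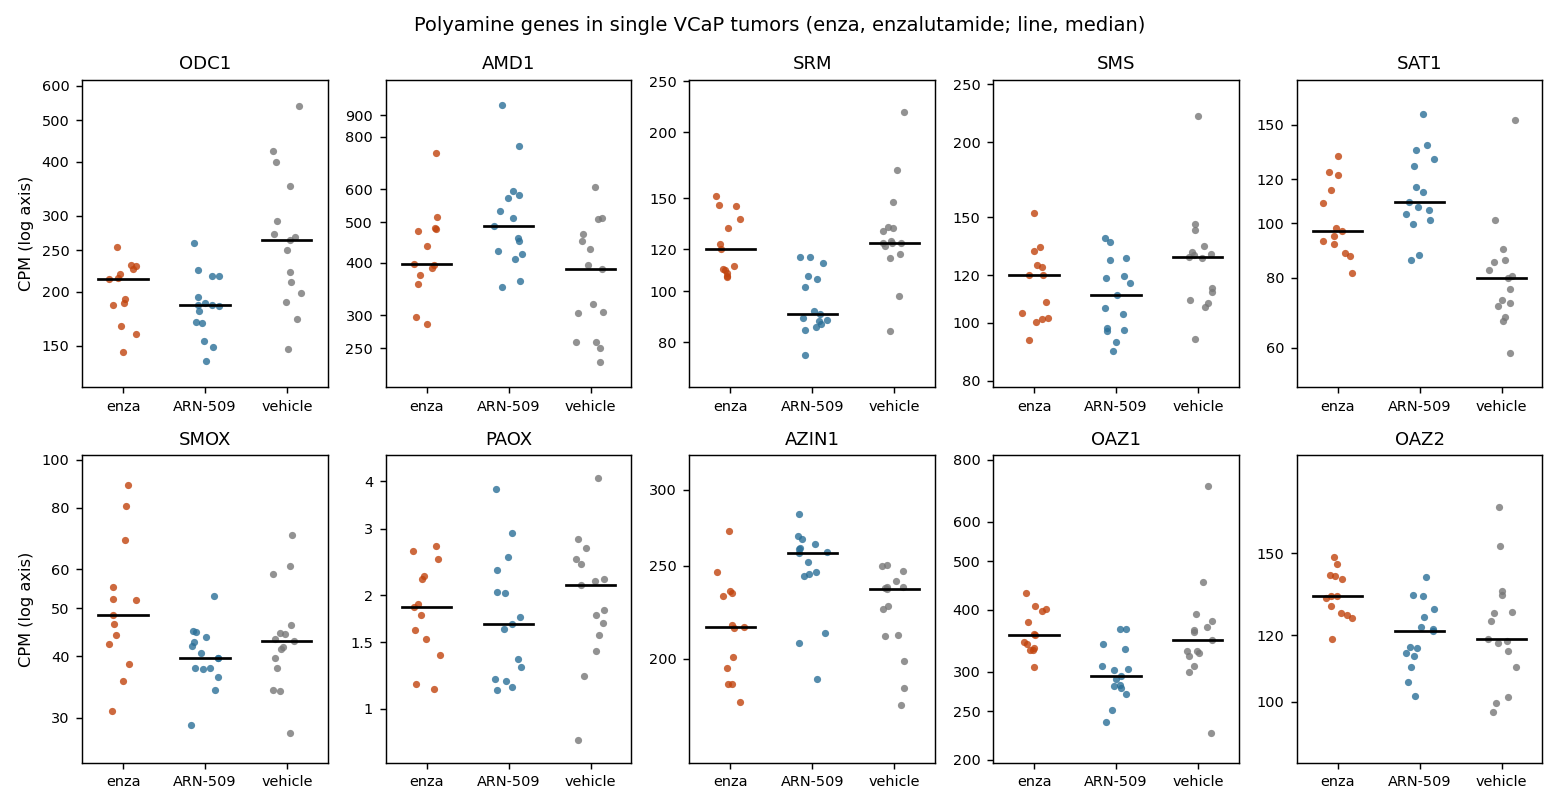
Level of each of the 10 polyamine genes (y axis, CPM on a log axis) in single tumors given enzalutamide, ARN-509 or vehicle, with a line at each arm's median. ODC1 lies lower and SAT1 higher with both drugs, SRM is lower with ARN-509 (median 90.4 CPM, against 124 CPM with vehicle), and the ranges of the arms overlap in every panel.

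The promoters of ODC1, SRM and SAT1 are shown because these genes gave the firmest differences from vehicle, ODC1 and SRM downward and SAT1 upward. They come from RefSeq on GRCh38.p14, which matched 7 of the 10 genes with 10 windows of 300 bases, each from 250 bases before to 50 bases after an annotated start; AZIN1, SMOX and PAOX are not shown. Capitals mark the E-box CACGTG, the site of MYC and related factors, searched on both strands (it reads the same on each). The windows are chr2:10447963-10448262 (minus strand) for ODC1, chr1:11059969-11060268 (minus strand) for SRM and chrX:23782923-23783222 (plus strand) for SAT1, each printed 5′ to 3′.
ODC1: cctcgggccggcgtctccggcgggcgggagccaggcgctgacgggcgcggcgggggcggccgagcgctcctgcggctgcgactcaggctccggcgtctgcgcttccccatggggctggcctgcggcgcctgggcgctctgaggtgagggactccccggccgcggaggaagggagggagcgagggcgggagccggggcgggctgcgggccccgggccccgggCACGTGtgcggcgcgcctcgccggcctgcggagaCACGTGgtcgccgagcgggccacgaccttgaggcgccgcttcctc
SRM: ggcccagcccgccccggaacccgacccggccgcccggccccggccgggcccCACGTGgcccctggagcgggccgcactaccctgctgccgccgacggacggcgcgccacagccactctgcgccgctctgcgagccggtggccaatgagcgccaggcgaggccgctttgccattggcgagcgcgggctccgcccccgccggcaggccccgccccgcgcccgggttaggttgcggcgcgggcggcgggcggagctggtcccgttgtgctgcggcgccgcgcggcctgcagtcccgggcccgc
SAT1: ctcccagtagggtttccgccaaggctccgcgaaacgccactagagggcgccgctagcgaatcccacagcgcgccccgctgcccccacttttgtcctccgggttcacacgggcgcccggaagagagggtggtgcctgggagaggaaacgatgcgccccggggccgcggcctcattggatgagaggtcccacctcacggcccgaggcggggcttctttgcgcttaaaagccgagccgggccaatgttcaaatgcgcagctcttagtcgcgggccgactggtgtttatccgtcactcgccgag

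An E-box stood in 2 of the 10 windows, those printed for ODC1 (2 matches, the first ahead of the start and the second past it) and SRM (1 match), and in 7.26% of the 35116 windows in the table. The androgen response element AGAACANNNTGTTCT was in 0 of the 10 windows and in 1 of all 35116, and the AGAACA at its left end, searched on both strands, was in 0 of the 10 and in 14.8% of all. ODC1 has 2 annotated windows, and the printed one was picked because it holds the motif. The other, chr2:10448278-10448577, lies upstream of it on the minus strand and has 0 matches. Which start is used in these tumors was not tested. These matches describe letters in short windows and say nothing of binding. MYC, a transcription factor known to act on ODC1, ran from 121 over 391 to 841 CPM with enzalutamide, from 184 over 385 to 851 CPM with ARN-509 and from 117 over 219 to 617 CPM with vehicle. Its log2 differences of 0.48 ± 0.26 and 0.47 ± 0.25 did not pass the test (adjusted p = 0.248 and 0.142).

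SRM, which makes spermidine, was lower with ARN-509 than with vehicle. Its lowest, median and highest levels were 106, 120 and 151 CPM in enzalutamide tumors, 75.6, 90.4 and 116 CPM in ARN-509 tumors and 84.2, 124 and 219 CPM in vehicle tumors. All 15 ARN-509 tumors lay below the vehicle median, and 7 of 13 enzalutamide tumors lay above the highest ARN-509 tumor. SRM fell by 0.44 ± 0.09 on the log2 scale under ARN-509 (adjusted p = 0.000171; -0.41 without vehicle 8 and 10, adjusted p = 2.70e-05), to 0.735 of vehicle. This call was kept at -0.25 (adjusted p = 9.85e-05), but the difference from enzalutamide was lost (adjusted p = 0.221), once a trend with GC content and transcript length, described with the comparison of the drugs, was removed. Under enzalutamide the difference of -0.08 did not pass (95% interval -0.26 to 0.10, adjusted p = 0.631), and with the trend removed it passed at -0.15 (adjusted p = 0.0307). Annotated pseudogenes of SRM (2) and of AMD1 (4) have no rows of their own in the table, so reads could be shared with them.

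AMD1, the other decarboxylase of the pathway, was higher with ARN-509 than with vehicle. It ran from 285 over 398 to 733 CPM in enzalutamide tumors, from 351 over 490 to 952 CPM in ARN-509 tumors and from 232 over 387 to 606 CPM in vehicle tumors. The ranges overlapped widely, with 13 of 15 ARN-509 tumors and 9 of 13 enzalutamide tumors above the vehicle median. AMD1 rose by 0.47 ± 0.14 under ARN-509 (adjusted p = 0.00991; 0.49 without vehicle 8 and 10, adjusted p = 0.00622), a call lost once that same trend was removed (adjusted p = 0.0737). With enzalutamide its difference of 0.19 did not pass (95% interval -0.10 to 0.48, adjusted p = 0.454). The ratio of AMD1 to ODC1 counts was 1.56 to 3.18 with enzalutamide (median 2.13), 2.07 to 5.05 with ARN-509 (median 2.58) and 0.431 to 4.12 with vehicle (median 1.45). It was above the vehicle median in all 13 and all 15 drug-treated tumors. ODC1 lay below its own vehicle median in every one of these tumors, so this count is not separate support. The ratio also carries that trend, whose part for ARN-509 minus vehicle was 0.16 for AMD1 and -0.05 for ODC1 (log2).

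SMS, which makes spermine, passed no test against vehicle. It ran from 93.5 over 120 to 152 CPM with enzalutamide, from 89.7 over 111 to 139 CPM with ARN-509 and from 93.7 over 129 to 221 CPM with vehicle. The log2 differences from vehicle were -0.15 under enzalutamide (95% interval -0.33 to 0.03, adjusted p = 0.319) and -0.21 under ARN-509 (-0.38 to -0.03, adjusted p = 0.0614). The ARN-509 value passed in 8 of the 43 fits without 1 library, with adjusted p from 0.0264 to 0.0490.

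The oxidases passed no test against vehicle either. SMOX ran from 30.9 over 48.5 to 88.7 CPM with enzalutamide, from 28.98 over 39.7 to 52.9 CPM with ARN-509 and from 27.97 over 43.003 to 70.5 CPM with vehicle. Its differences from vehicle were 0.24 with enzalutamide (95% interval -0.01 to 0.49, adjusted p = 0.223) and -0.14 with ARN-509 (-0.38 to 0.10, adjusted p = 0.365). PAOX had the lowest counts of the 10 genes, at 1.13 to 2.69 CPM with enzalutamide, 1.12 to 3.83 CPM with ARN-509 and 0.828 to 4.07 CPM with vehicle, and its counts per library went down to 4. Its log2 difference from vehicle was -0.09 with enzalutamide (95% interval -0.46 to 0.27, adjusted p = 0.809) and -0.23 with ARN-509 (-0.59 to 0.13, adjusted p = 0.330).

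Of the regulators of the ODC1 protein, OAZ1 was lower with ARN-509. Its lowest, median and highest levels were 306, 355 and 432 CPM in enzalutamide tumors, 238, 295 and 366 CPM in ARN-509 tumors and 227, 348 and 709 CPM in vehicle tumors. The 2 extreme vehicle values belong to replicates 10 and 8. OAZ1 fell by 0.29 ± 0.09 under ARN-509 (adjusted p = 0.0125; -0.23 without vehicle 8 and 10, adjusted p = 0.00453), a call also lost with that trend removed (adjusted p = 0.0610). With enzalutamide it differed by -0.02 (95% interval -0.21 to 0.17, adjusted p = 0.926). OAZ1 shares 236 exon bases with JSRP1 on the opposite strand, and with a kit that does not mark strand such reads cannot be told apart.

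OAZ2 and AZIN1 passed no test against vehicle. OAZ2 ran from 119 over 134 to 148 CPM with enzalutamide, from 102 over 122 to 141 CPM with ARN-509 and from 97.4 over 119 to 170 CPM with vehicle. AZIN1 ran from 180 over 216 to 272 CPM with enzalutamide, from 191 over 258 to 283 CPM with ARN-509 and from 179 over 236 to 250 CPM with vehicle. With ARN-509, 9 of 15 tumors stood above the highest vehicle tumor for AZIN1, and the log2 difference was 0.14 ± 0.06 (adjusted p = 0.0705; under 0.05 in 3 of 43 fits without 1 library). With the GC and length trend taken out that difference was 0.0013 (adjusted p = 0.982). Both genes share exon bases with an antisense gene (554 for OAZ2 and 344 for AZIN1) that has no row in the table. The ratio of AZIN1 to OAZ1 counts was 0.450 to 0.804 with enzalutamide (median 0.610), 0.609 to 1.13 with ARN-509 (median 0.868) and 0.252 to 1.05 with vehicle (median 0.652). This ratio carries the GC and length trend, whose part for ARN-509 minus vehicle was 0.139 for AZIN1 and -0.145 for OAZ1 (log2).

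As 1 pair of compounds, given at an equal dose for an equal time, the drugs were compared directly. Enzalutamide and ARN-509 are both diarylthiohydantoins; the dimethyl carbon of enzalutamide is part of a cyclobutane ring in ARN-509, and a pyridine replaces a benzene ring. ODC1 and SAT1 did not pass between the drugs. The interval of the difference, enzalutamide minus ARN-509, was -0.16 to 0.37 for ODC1 (log2 0.10, adjusted p = 0.578) and -0.36 to 0.04 for SAT1 (-0.16, adjusted p = 0.234). Of the 10 genes, 4 passed, against 26.8% of all genes: SRM, OAZ1 and SMOX were higher with enzalutamide (12.2% of all genes were) and AZIN1 was lower (14.6%). SRM was higher by 0.36 ± 0.09 (adjusted p = 0.00564), with all 13 enzalutamide tumors above the ARN-509 median. OAZ1 was higher by 0.27 ± 0.09 (adjusted p = 0.0289; 0.0537 without enzalutamide 6) and SMOX by 0.38 ± 0.12 (adjusted p = 0.0202; 0.0592 without enzalutamide 5). AZIN1 was lower by a log2 difference of -0.19 ± 0.06 (adjusted p = 0.0218). OAZ2 differed by 0.16 ± 0.06 (adjusted p = 0.0544), under 0.05 in 9 of 43 fits without 1 library. The median of the 10 log2 differences was 0.12, against 0.01 for all genes.

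A trend with base composition moved with these differences. Across 12025 genes with a known GC content, the log2 difference had a Spearman correlation with GC content of 0.216 for enzalutamide minus vehicle, -0.417 for ARN-509 minus vehicle and 0.620 for enzalutamide minus ARN-509 (genes are not independent replicates here). The libraries themselves ranged from -0.138 to 0.734 with enzalutamide, from -0.731 to 0.349 with ARN-509 and from -0.371 to 0.572 with vehicle in the same measure, taken on each library's deviation from the mean of all. SRM (63.7% GC), SMOX (60.98%) and OAZ1 (54.0%) are richer in GC than AZIN1 (42.3%) and AMD1 (38.0%). A trend with GC content and transcript length together was fitted to each library. The part of the log2 difference between the drugs that followed this joint trend was 0.26 for SRM, 0.21 for OAZ1, 0.19 for SMOX and -0.18 for AZIN1. It was 0.08 for ODC1 (51.2% GC). The shares of GC content and of length were not told apart.

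Once the dependence of each library on GC content and on transcript length had been taken out, 0 of the 10 genes differed between the drugs at an adjusted p under 0.05 in edgeR, and 550 genes of the whole table did. The values became 0.10 for SRM (adjusted p = 0.221), 0.07 for OAZ1 (0.445), 0.19 for SMOX (0.298) and -0.01 for AZIN1 (0.883). ODC1 kept its calls against vehicle, at -0.49 under enzalutamide (adjusted p = 0.00602) and -0.51 under ARN-509 (0.00150), as did SAT1 at 0.28 (0.0280) and 0.48 (3.84e-05). SRM was lower with both drugs in this fit, by -0.15 with enzalutamide (adjusted p = 0.0307) and -0.25 with ARN-509 (9.85e-05). The ARN-509 calls of AMD1 (0.33, adjusted p = 0.0737) and OAZ1 (-0.12, adjusted p = 0.0610) were lost, and SMS passed with ARN-509 (-0.18, adjusted p = 0.0476). What gives rise to the trend was not tested.

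**Figure D3:**
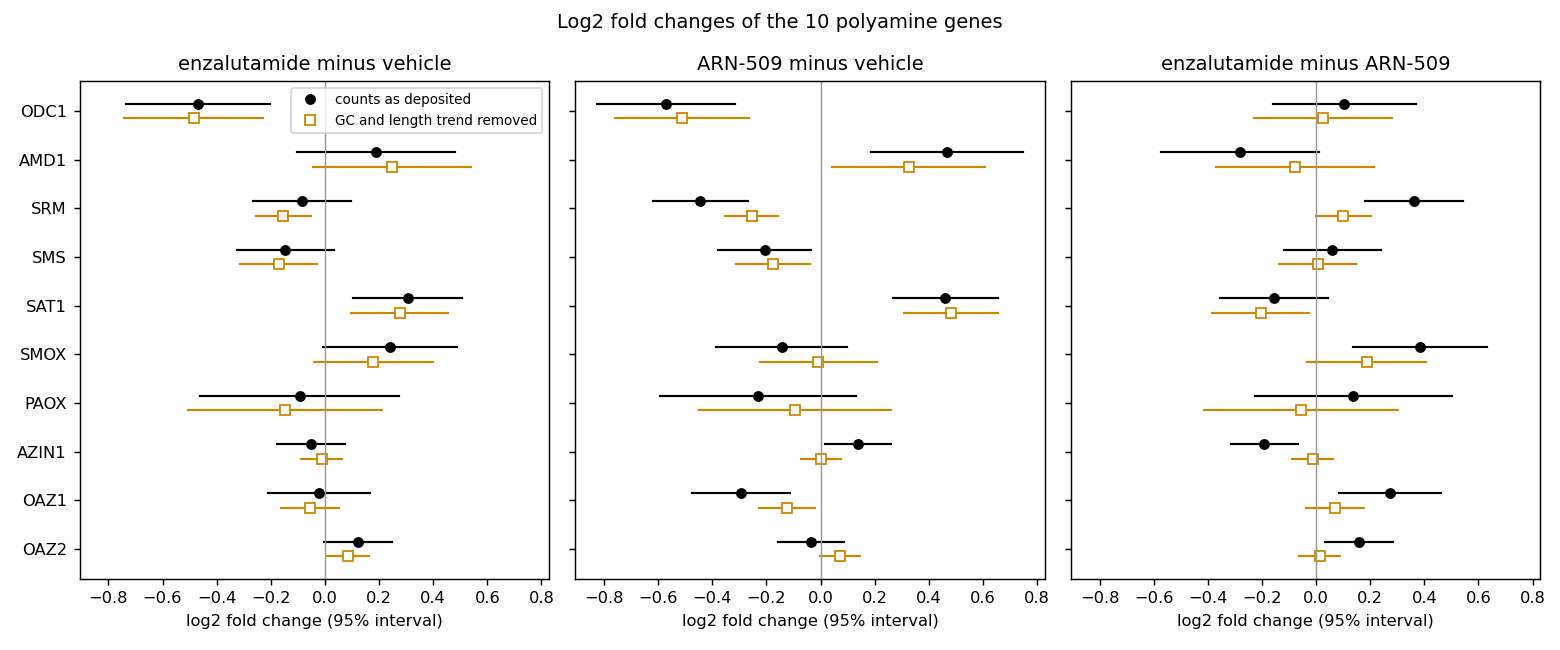
Log2 fold changes with 95% intervals (x axis) of the 10 genes (rows) in the 3 comparisons, from the counts as deposited (filled circles) and after the dependence on GC content and length was taken out of each library (open squares). Both versions lie below 0 for ODC1 and above 0 for SAT1 with each drug, while the differences between the drugs move towards 0, from 0.36 to 0.10 for SRM.

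**Figure D4:**
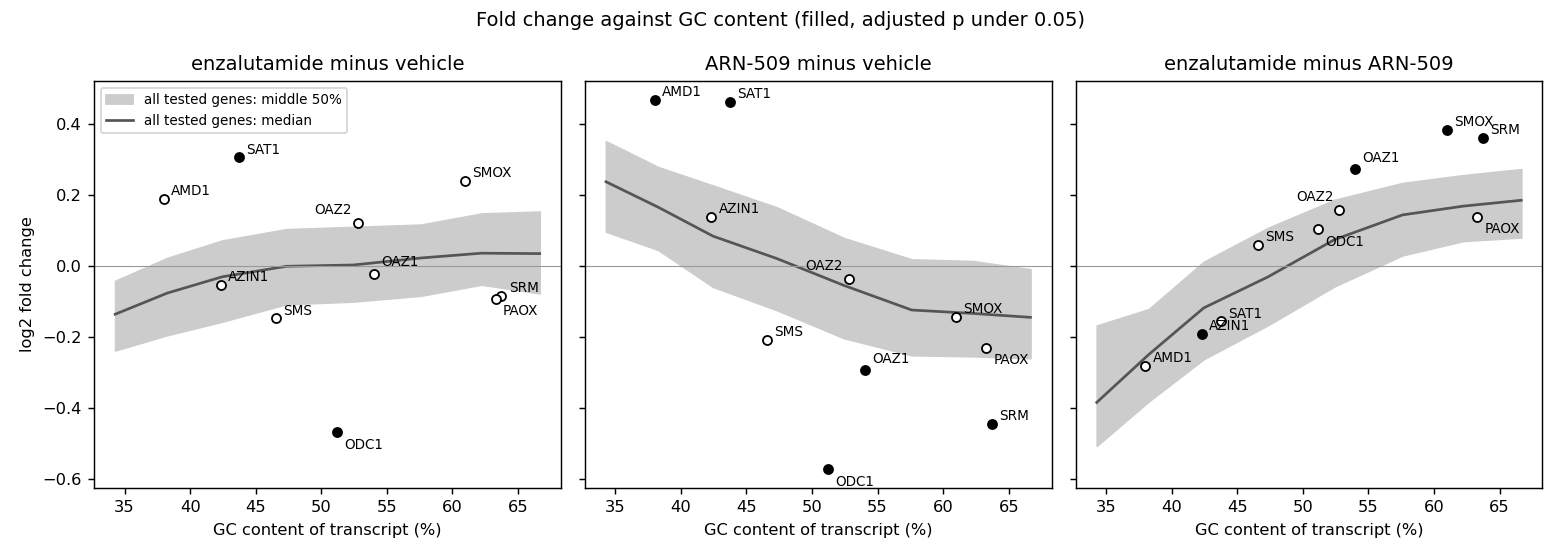
Log2 fold change (y axis) against transcript GC content (x axis, %) for the 10 genes (points, filled where the adjusted p was under 0.05) and for all tested genes with a GC value (line, median in bins of GC content; grey, middle 50%). Between the drugs the median climbs from -0.38 in the bin of lowest GC to 0.19 in that of highest GC, and AZIN1 lies close to it, whereas ODC1 and SAT1 lie far from it in both comparisons with vehicle.

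Relative to transcript length, the order of the 10 genes shifted between the arms. OAZ1 was the highest in every arm, at 316 ± 32.1 CPM per kb with enzalutamide, 262 ± 32.7 with ARN-509 and 321 ± 93.1 with vehicle (SD), and AMD1 was next. ODC1 took rank 5 with enzalutamide (76.3 ± 12.1 CPM per kb) and with ARN-509 (70.98 ± 11.99), and rank 3 with vehicle (106 ± 40.4). SAT1 took rank 4 with enzalutamide (96.3 ± 15.01), rank 3 with ARN-509 (108 ± 18.4) and rank 5 with vehicle (77.96 ± 20.7). AZIN1, SMOX and PAOX were the lowest, in that order, in every arm. Neighbours in the middle of the order were close: SRM exceeded SAT1 in 8 of 13 enzalutamide tumors, SRM exceeded ODC1 in 10 of 15 ARN-509 tumors, and ODC1 exceeded SRM in 6 of 15 vehicle tumors.

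Other genes around the pathway, 27 in all from a list of suppliers, transporters, paralogs, salvage enzymes and the hypusine branch, were counted next. Of these 24 passed the filter, and ARG1, SATL1 and ATP13A4 did not. With enzalutamide 2 rose and 0 fell (10.8% of all genes passed), with ARN-509 5 rose and 5 fell (30.8%), and between the drugs 4 were higher and 3 lower with enzalutamide (26.8%). The medians of their log2 differences were 0.02, -0.05 and 0.04.

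ARG2, the mitochondrial arginase that makes ornithine, had the largest called rise of the 24 with each drug. Its lowest, median and highest levels were 30.2, 40.4 and 53.3 CPM with enzalutamide, 33.0, 42.3 and 77.8 CPM with ARN-509 and 12.6, 21.1 and 48.9 CPM with vehicle. ARG2 rose by 0.82 ± 0.15 under enzalutamide (adjusted p = 6.96e-05) and by 0.97 ± 0.14 under ARN-509 (adjusted p = 1.26e-06), and both calls were kept once the GC and length trend was removed (adjusted p = 9.84e-05 and 8.49e-07). The enzyme ahead of ODC1 was thus higher in the same arms in which ODC1 was lower. AZIN2, a paralog of AZIN1 listed under its older symbol ADC, rose by 0.27 ± 0.09 under enzalutamide (adjusted p = 0.0369) and by 0.25 ± 0.08 under ARN-509 (adjusted p = 0.0222); it has no GC value here.

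Under ARN-509, MAT2A, which makes the S-adenosylmethionine that AMD1 uses, rose by 0.31 ± 0.08 (adjusted p = 0.00201). Its liver-type relative MAT1A, at 0.925 to 5.11 CPM with ARN-509 and 0.412 to 4.46 CPM with vehicle, rose by 0.67 ± 0.26 (adjusted p = 0.0477). With enzalutamide MAT1A differed by 0.71 ± 0.27 and did not pass (adjusted p = 0.0870). Its vehicle libraries held a median of 6 counts. In the hypusine branch, which turns spermidine into a residue of the translation factor eIF5A, 3 of 4 genes fell under ARN-509 (16.1% of all genes did) and 1 rose (14.7%), with no test of the group. EIF5A fell by 0.34 ± 0.09 (adjusted p = 0.00348), DOHH by 0.36 ± 0.13 (0.0325) and DHPS by 0.15 ± 0.06 (0.0469), and EIF5A2 rose by 0.35 ± 0.14 (0.0456). With the trend removed, EIF5A kept its call (-0.17, adjusted p = 0.0118), and DOHH (0.0818), DHPS (0.815) and EIF5A2 (0.538) did not. ADI1, of methylthioadenosine salvage, and ATP13A2, a lysosomal polyamine exporter, fell by 0.19 ± 0.07 and 0.20 ± 0.07 under ARN-509 (adjusted p = 0.0430 and 0.0202). Between the drugs, EIF5A, DHPS, ADI1 and ATP13A2 were higher with enzalutamide and MAT2A, MTAP and ATP13A3 were lower, by absolute log2 differences of 0.16 to 0.57, and 0 of the 7 passed in edgeR with the trend removed.

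**Figure D5:**
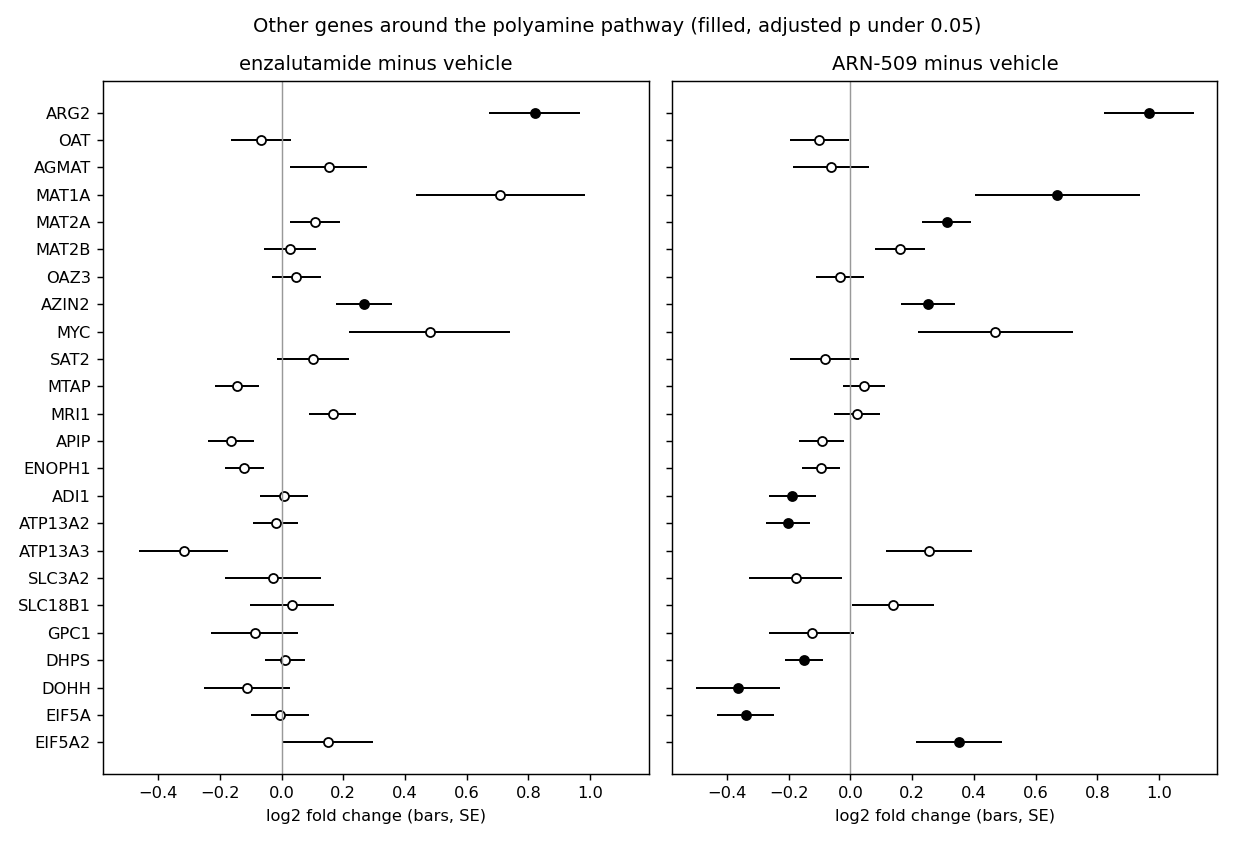
Log2 fold changes (x axis; bars, SE) of the 24 other tested genes (rows) for enzalutamide minus vehicle and ARN-509 minus vehicle, filled where the adjusted p was under 0.05. ARG2 lies at 0.82 and 0.97, and EIF5A lies near 0 with enzalutamide and at -0.34 with ARN-509.

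Within an arm, 6 pairs of the 10 genes were related over tumors on log2 CPM, which makes 18 relations with their p-values adjusted together (permutation test with 100000 resamples, two-sided). ODC1 and its antizyme OAZ1 rose and fell together in vehicle tumors (Pearson r = 0.807, adjusted p = 0.00306; Spearman rho = 0.696, adjusted p = 0.0967; n = 15). SRM and SMS did likewise (r = 0.794, adjusted p = 0.0130; rho = 0.471, adjusted p = 0.351; n = 15). Without the 2 tumors farthest from the median r became 0.602 for ODC1 and OAZ1 (adjusted p = 0.508) and 0.297 for SRM and SMS (adjusted p = 0.897), so neither passed at 13 tumors, and the relation of SRM and SMS rests on those left out. With the GC and length trend taken out, r was 0.851 (adjusted p = 0.000180) and 0.321 (adjusted p = 0.431). For ODC1 and OAZ1 the other arms gave r = 0.047 with enzalutamide (adjusted p = 0.877) and r = 0.532 with ARN-509 (adjusted p = 0.186). ODC1 and SAT1, which moved in opposite directions between arms, gave r = -0.240 with enzalutamide, -0.175 with ARN-509 and 0.178 with vehicle (adjusted p = 0.686 for each).

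The genes outside the 10 whose levels followed ODC1 most closely, over 43 tumors with each arm's mean subtracted, were SAP30, a subunit of a histone deacetylase complex (r = 0.882), SSRP1, a subunit of the histone chaperone FACT (0.879), and TMSB15A, a thymosin (0.851). For AMD1 they were RBM12 (0.854), SH3RF1 (0.852) and MYC (0.851), and for SAT1 they were SELENBP1, LUC7L and BAIAP2L1 at lower values (0.664, 0.664 and 0.663). Among the 10 genes the closest pairs in the same measure were OAZ1 with OAZ2 (0.801) and SRM with OAZ1 (0.781), and the most opposed were SRM and AZIN1 (-0.627). These values share library depth and the GC trend and are given as descriptions.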

How the data were processed

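Total RNA of 44 tumors was sequenced from Illumina TruSeq RNA v2 libraries, per the labels' protocols, a kit that does not mark strand. The deposited file is a gene table of raw counts made by the authors; the submitters' processing notes name HTSeq 0.6.1, TopHat2 2.1.0, Picard 1.77, bcl2fastq 1.8.4 and hg19. Annotation, strand setting and any handling of mouse reads: not given in the sources used here. Thus reads of host cells may be counted for similar human genes. Arms and replicate numbers come from the sample titles (0 columns unmatched). No 2 libraries were identical, and chi-square values per degree of freedom within an arm were at least 4.41 (enzalutamide), 3.71 (ARN-509) and 3.27 (vehicle), so each was counted once. Whether the tumors of an arm are independent beyond being from separate mice is not stated.

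Counts of 43 libraries were filtered with filterByExpr by arm, scaled by TMM and modelled with edgeR 4.0.16 under R 4.3.3, using robust quasi-likelihood estimation and arm as the only term. An SE is the log2 fold change over the root of its F value, and 95% intervals are from the t distribution. Tests and trend removal were also run on simulated counts that used the fitted dispersions. The simulated trend gave every ARN-509 library the same GC slope and had no length part. It therefore does not cover trends that vary between libraries of an arm, and no result here rests on it. GC content and length came from GENCODE 29 on GRCh38, matched by symbol for 88.9% of tested genes. For the trend removal, each library's smooth trend (spline with 3 degrees of freedom) entered as an offset. Named are the 10 genes, the called genes of a list of 27 and the 3 genes most like ODC1, AMD1 and SAT1. The 10 genes, the lists and the tests were chosen with earlier results of these data known. Alternatives were other scalings (DESeq2 size factors, library totals), filters and tests (DESeq2 1.42.0, limma 3.58.1 voom with quality weights), all 44 libraries, the 2 arms compared alone, a replicate block, the trend removal and each library left out. The fit without vehicle 8 and 10 was added after the data were seen. Same-numbered tumors of the arms did not in general deviate together, so numbers were not taken as pairs. The median r of their deviations was -0.017 for enzalutamide and vehicle, 0.052 for ARN-509 and vehicle and -0.004 between the drugs. Single pairs reached 0.467, 0.59 and 0.269 in the same order.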

Additional observations from a re-analysis of the deposited data

Results flagged for a closer look

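Enzalutamide replicate 4, which entered no comparison, held 80142 counts, and its levels are given as CPM of the library total. AMD1 stood at 2283 CPM there (183 counts; exact Poisson 95% interval 1965 to 2639), against at most 616 CPM in any vehicle tumor. OAZ2 stood at 2558 CPM (205 counts; 2220 to 2933, at most 145 CPM with vehicle) and AZIN1 at 910.9 CPM (73 counts; 714 to 1145, at most 253 CPM with vehicle). These 3 levels drew attention as signals above the vehicle arm in a library left out of the tests. In the same library ODC1, SMS and SMOX had 1 count each and SRM and PAOX had 0, which allows up to 46.0 CPM (upper end of the exact interval). The intervals cover counting error only.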

How the results depend on the processing

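Over the 10 genes and 3 comparisons, 43 fits without 1 library each and 11 other settings gave 1620 values. Of these 1563 kept their side of the threshold, 25 lost the call and 31 gained one. In 1 a called difference changed sign: AZIN1 between the drugs, 0.0126 with all 44 libraries (adjusted p = 0.973). Differences that were not called could change sign and still count as kept, such as AMD1 between the drugs (-0.28, and 0.17 with all 44 libraries). With enzalutamide 4 included, 1 of the 10 genes passed for enzalutamide against vehicle, as with the 2 arms alone (1), since SAT1 was lost (adjusted p = 0.0545 and 0.0664). AMD1 lost its ARN-509 call with all 44 libraries (adjusted p = 0.172). Between the drugs, 0 of the 10 genes and 550 genes in all passed with the GC and length trend removed, as described above. limma voom called 2547 genes for enzalutamide against vehicle and 5707 between the drugs; the cause was not tested. Of the 18 relations, 0 passed without the 2 farthest tumors, and 2 did with the trend removed, ODC1 with OAZ1 in vehicle tumors (r = 0.851) and ODC1 with AZIN1 in ARN-509 tumors (r = 0.791).

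With 1 library left out, 1 to 2 of the 10 genes passed for enzalutamide against vehicle (1145 to 1794 genes in all), 5 to 7 for ARN-509 against vehicle (3261 to 5045) and 3 to 5 between the drugs (2680 to 4269). With library totals as the only scaling, 838 genes rose and 600 fell under enzalutamide (58.3% higher, against 689 and 766, 47.4%), 2713 rose and 1466 fell under ARN-509 (64.9%, against 1988 and 2178, 47.7%), and between the drugs 1202 were higher with enzalutamide and 2263 lower (34.7%, against 1647 and 1976, 45.5%). The last split was 319 and 231 (58.0%) with the trend removed. The replicate block, for numbers not taken as pairs (median r of same-numbered deviations -0.017, 0.052 and -0.004), gave 1197, 4084 and 3290 genes and 2, 5 and 4 of the 10. Between the drugs AZIN1 was not among the 4 (-0.18, adjusted p = 0.0500002) and AMD1 was (-0.28, adjusted p = 0.0360). At the lowest depth, PAOX rested on 4 counts in 1 vehicle library.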
